A study of Drosophila melanogaster with 8 samples.

Results

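The lysozyme genes of the Drosophila midgut described here are LysB, LysC, LysD, LysE, LysP, LysS and LysX, 7 of the 17473 genes of the count table, taken by gene name. LysD was picked because its RNA was lower with mutant mtDNA in these libraries, and the other 6 because they belong to the same family. Lysozymes of this family cut the sugar backbone of peptidoglycan, the polymer of bacterial cell walls. In flies they are best known as digestive enzymes secreted into the gut, which feeds on microbe-rich food, rather than as genes switched on by infection. LysB, LysD and LysE are closely similar copies known from the midgut, and LysC lies among them. LysP is known from the adult salivary gland, LysS from the gastric caeca of the larval gut and LysX from the midgut during metamorphosis.

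RNA was sequenced in 8 Drosophila melanogaster libraries labelled as intestinal stem cells, 2 in each of 4 groups: mutant mtDNA with FOXO knockdown, control mtDNA with FOXO knockdown, mutant mtDNA, and control mtDNA. The transcription factor FOXO is held back by insulin signalling and promotes stress and starvation responses. Per the labels' protocols, samples were fixed and sonicated and anti-FLAG beads took up poly(A)-binding protein with the RNA attached to it, a way to enrich mRNA of the cells that carry a tagged form of that protein. The mtDNA mutation, the driver lines, the age and the number of flies per library are not given in the sources used here, nor whether replicates came from separate flies, so p-values measure only the spread between these libraries.

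Total counts were 21133996 to 39327066 per library. The rRNA share of counts was 30.8% for replicate 1 of mutant mtDNA and 18.2% for replicate 1 of control mtDNA, called the low-rRNA libraries here, and lay between 79.4% and 83.8% for the other 6, the high-rRNA libraries. Enterocyte markers, such as Jon65Aiv with 1693 to 3373 CPM (read counts relative to the scaled library size), were high in every library, while the 5 progenitor markers summed to 44.8 to 99.9 CPM, so RNA of differentiated gut cells was present beside that of the labelled cell type. Transcripts of foxo itself were at 52.1 and 53.1 CPM in mutant mtDNA with knockdown, 52.1 and 48.1 CPM in control mtDNA with knockdown, 49.8 and 66.6 CPM in mutant mtDNA and 43.3 and 61.9 CPM in control mtDNA. In edgeR fits the foxo fold change with knockdown was not past the threshold in either mtDNA background (adjusted p 0.947 and 0.909, or 0.517 and 0.274 with a term for the library class), so the knockdown is called labelled.

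Levels are given as CPM on library sizes scaled by the trimmed mean of M-values (TMM), and changes come from edgeR quasi-likelihood tests across 11561 genes with Benjamini-Hochberg adjustment and a threshold of 0.05. All 7 members passed the filter on low counts, LysS through its counts in the libraries without knockdown. Each comparison was fitted with 1 mean per group and again with a term for the library class (low or high rRNA share), which is estimated from the control and mutant libraries because no knockdown library had a low rRNA share. Mutant against control mtDNA without knockdown is the comparison LysD was picked on, and its values are given as a description with no test.

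In the Ensembl annotation of the BDGP6 assembly, the 7 genes lie on chromosome arm 3L in the order LysX, LysB, LysC, LysD, LysE, LysP, LysS. All but LysX lie within the span of mwh without sharing exon bases with it. LysC is annotated there as a pseudogene of 242 bases, and it overlaps LysD, on the opposite strand, by 10 bases. The other members have exon lengths of 480 to 615 bases. How the authors treated reads that match several copies, and whether they counted by strand, is not given in the sources used here, so the values of LysB, LysC, LysD and LysE are uncertain as values of single copies. None of the 21 pairs of members had the same count in every library.

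LysD (FBgn0004427) gave the most RNA of the family per length in 3 of the 4 groups. It had 19.0 and 21.6 CPM in mutant mtDNA with labelled knockdown, 23.3 and 20.9 CPM in control mtDNA with labelled knockdown, 7.27 and 0.925 CPM in mutant mtDNA, and 28.3 and 41.0 CPM in control mtDNA. The mutant libraries without knockdown lay below all others, and mutant replicate 2, with 26 counts, lay far below mutant replicate 1, with 480. The control libraries lay above all others, and the 4 libraries with labelled knockdown lay close together between them.

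Without knockdown, LysD averaged 4.10 ± 4.49 CPM in mutant mtDNA and 34.7 ± 9.04 CPM in control mtDNA (SD, n = 2 each). Between the low-rRNA libraries the level was 3.89-fold lower in mutant replicate 1 than in control replicate 1, and between the high-rRNA libraries 44.4-fold lower in mutant replicate 2 than in control replicate 2. The fitted log2 fold change was -3.05 with 1 mean per group and -3.29 with the class term. With the class term it was -5.45 without mutant replicate 1 and -1.96 without mutant replicate 2. The direction was thus shared by both library classes, while the size differed between them. In bulk RNA, fewer cells of a type and less RNA per cell cannot be told apart.

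With labelled knockdown, LysD averaged 20.3 ± 1.88 CPM in mutant mtDNA and 22.1 ± 1.64 CPM in control mtDNA (SD, n = 2 each), and the groups overlapped. These 4 libraries were not used to pick LysD. The log2 fold change was -0.12 (edgeR, SE 0.72, adjusted p 1) with 1 mean per group and -0.13 (edgeR, SE 0.48, adjusted p 0.965) with the class term. Leaving out any of the 4 libraries gave -0.21 to -0.027 in both fits.

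**Figure D1:**
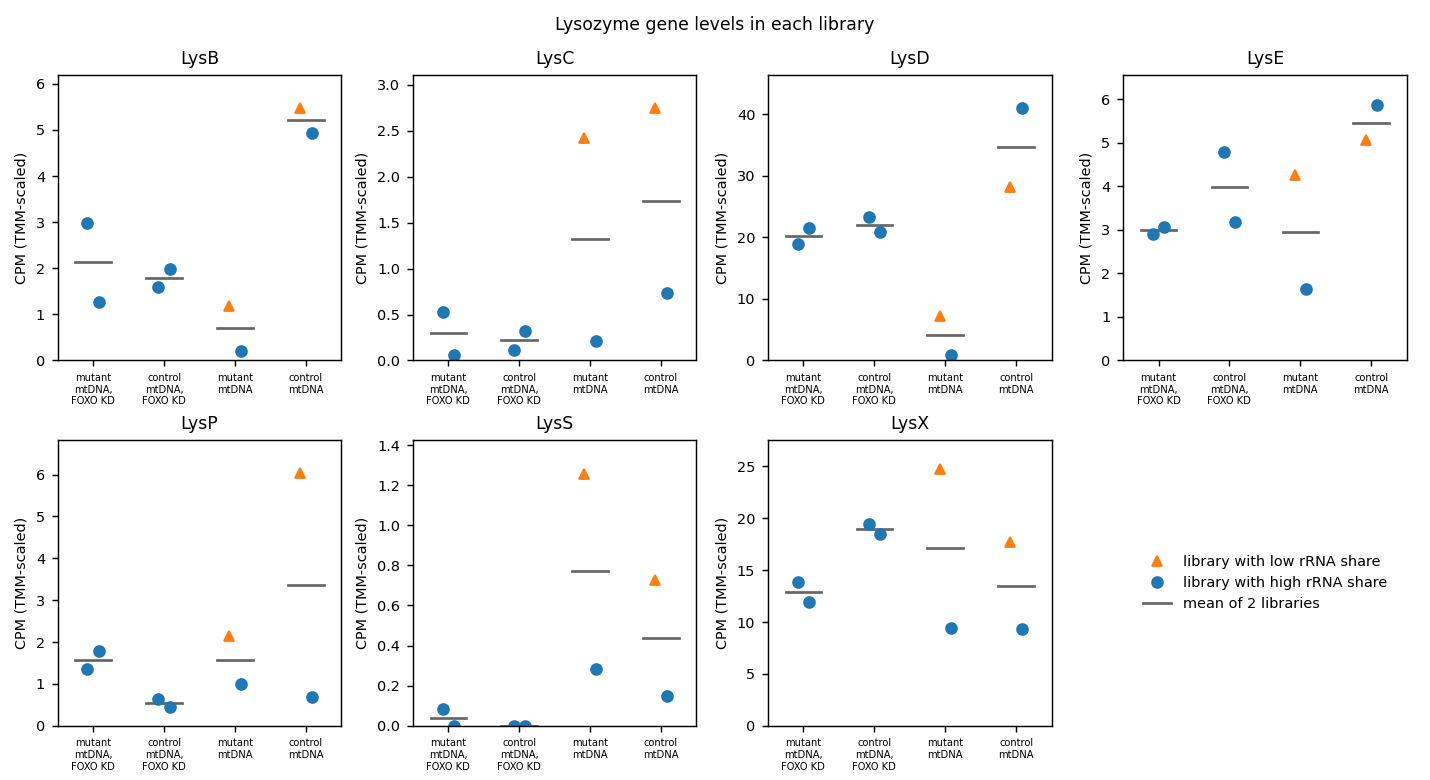
Level of each lysozyme gene in each library, in TMM-scaled CPM on a linear axis from 0, by group; triangles are the libraries with a low rRNA share, circles those with a high share, and bars the mean of 2 libraries. LysD and LysB are lowest in both libraries of mutant mtDNA without knockdown, while LysX reaches its highest level, 24.7 CPM, in mutant replicate 1.

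LysB (FBgn0004425), another midgut copy, had its lowest and highest groups in common with LysD. It had 2.99 and 1.27 CPM in mutant mtDNA with labelled knockdown, 1.60 and 1.98 CPM in control mtDNA with labelled knockdown, 1.18 and 0.213 CPM in mutant mtDNA, and 5.48 and 4.94 CPM in control mtDNA. As for LysD, both mutant libraries without knockdown lay below all others and both control libraries above all others. Mutant replicate 1 was 4.64-fold below control replicate 1, and mutant replicate 2, with 6 counts, was 23.2-fold below control replicate 2. With labelled knockdown the mtDNA groups overlapped, and the log2 fold change was 0.26 (edgeR, SE 0.75, adjusted p 1) with 1 mean per group and 0.27 (edgeR, SE 0.59, adjusted p 0.924) with the class term. That sign rested on mutant knockdown replicate 1, without which both fits gave -0.48.

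LysE (FBgn0004428), the copy next to LysD, spanned the narrowest range of these 4 copies relative to its level, 1.64 to 5.87 CPM. It had 2.91 and 3.07 CPM in mutant mtDNA with labelled knockdown, 4.79 and 3.19 CPM in control mtDNA with labelled knockdown, 4.26 and 1.64 CPM in mutant mtDNA, and 5.06 and 5.87 CPM in control mtDNA. The mutant libraries lay below the control libraries in both library classes, by 1.19-fold in the low-rRNA pair and 3.59-fold in the high-rRNA pair. With labelled knockdown both mutant libraries again lay below both control libraries, and the log2 fold change was -0.42 (edgeR, SE 0.50, adjusted p 1) with 1 mean per group and -0.42 (edgeR, SE 0.43, adjusted p 0.801) with the class term.

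LysC (FBgn0004426), the annotated pseudogene, was measured at low counts. It had 0.532 and 0.0579 CPM in mutant mtDNA with labelled knockdown, 0.118 and 0.319 CPM in control mtDNA with labelled knockdown, 2.42 and 0.213 CPM in mutant mtDNA, and 2.75 and 0.734 CPM in control mtDNA. The low-rRNA libraries held 160 and 345 counts and the other 6 held 1 to 15, so its levels separated the library classes rather than the mtDNA groups. Its counts did not follow those of LysD, the gene it overlaps: mutant replicate 1 was 1.13-fold below control replicate 1 in LysC and 3.89-fold below it in LysD.

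Since reads of these 4 copies may have been split among them, their counts were also summed. The sum was 25.4 and 26.0 CPM in mutant mtDNA with labelled knockdown, 29.8 and 26.4 CPM in control mtDNA with labelled knockdown, 15.1 and 2.99 CPM in mutant mtDNA, and 41.6 and 52.6 CPM in control mtDNA. Without knockdown the sum was lower in mutant mtDNA, 2.74-fold in the low-rRNA pair and 17.6-fold in the high-rRNA pair. LysD makes up most of the sum in the control libraries, so this too follows in part from its choice, and the part of reads assigned between copies was not tested. On counts outside rRNA genes the sums were 52.1 and 11.1 CPM in mutant mtDNA and 162 and 204 CPM in control mtDNA, so the direction was the same on that scale.

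The share of each copy differed between libraries. LysD was picked for its low level in the mutant libraries, so its lower share there follows from the choice and is given as a description. LysD held 48.0% of the summed counts in mutant replicate 1 (95% Wilson interval 45.0% to 51.1%) and 31.0% in mutant replicate 2 (22.1% to 41.5%), against 68.0% in control replicate 1 (66.7% to 69.3%) and 78.0% in control replicate 2 (75.5% to 80.4%). LysE held 28.1% and 54.8% in the mutant libraries and 12.2% and 11.2% in the control libraries. In the 4 libraries with labelled knockdown LysD held 74.7% and 83.1% with mutant mtDNA and 78.1% and 79.2% with control mtDNA. These shares are ratios within a library and do not depend on its scaling. The intervals cover counting error only, since PCR copies are not independent molecules.

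**Figure D2:**
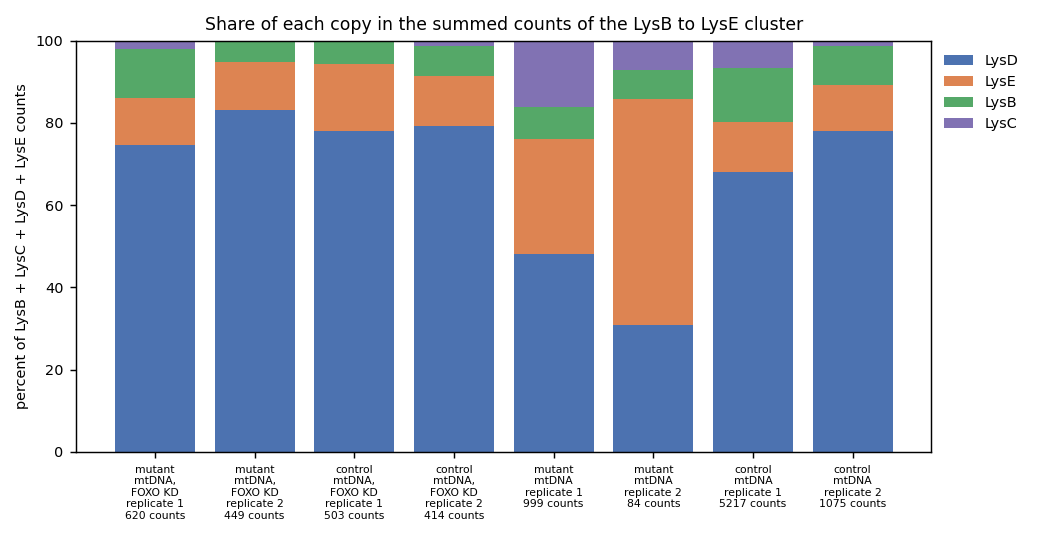
Percent of the summed LysB, LysC, LysD and LysE counts held by each copy, by library, with the summed count under each bar. LysD holds 31.0% and 48.0% in the mutant libraries without knockdown and 68.0% to 83.1% in the other 6.

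LysX (FBgn0004431), the member known from the metamorphosing midgut, was the other abundant member. It had 13.8 and 11.9 CPM in mutant mtDNA with labelled knockdown, 19.5 and 18.4 CPM in control mtDNA with labelled knockdown, 24.7 and 9.46 CPM in mutant mtDNA, and 17.7 and 9.30 CPM in control mtDNA. Both low-rRNA libraries lay above the high-rRNA library of the same group, by 2.62-fold in mutant and 1.90-fold in control mtDNA. Without knockdown the mtDNA groups overlapped, and LysX was 1.40-fold higher in mutant replicate 1 than in control replicate 1 and 1.02-fold higher in mutant replicate 2 than in control replicate 2. As LysD was picked for its low mutant level, the ratio of LysX to LysD is a description: there were 3.40 and 10.2 LysX counts per LysD count in the mutant libraries, against 0.625 and 0.226 in the control libraries, and 0.552 to 0.881 in the 4 libraries with labelled knockdown.

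With control mtDNA, LysX rose with labelled knockdown in the fit with the class term. It averaged 19.0 ± 0.720 CPM with labelled knockdown and 13.5 ± 5.93 CPM without it (SD, n = 2 each). The log2 fold change was 1.15 (edgeR, SE 0.21, adjusted p 0.0323) with the class term and 0.49 (edgeR, SE 0.48, adjusted p 0.807) with 1 mean per group. Within the high-rRNA class, both knockdown libraries lay above control replicate 2, on average 2.04-fold. Without control knockdown replicate 1 the adjusted p with the class term was 0.0631, and without any of the other 3 libraries it stayed between 0.0136 and 0.0263. LysX was the only called member of the 6 tested in this comparison, 1 of 6 with the class term and 0 of 6 with 1 mean per group. Of all genes tested, 0.571% were called with the class term, 0.398% higher and 0.173% lower, and 0% with 1 mean per group. The summed enterocyte markers overlapped between these groups, at 5060 to 5336 CPM with labelled knockdown and 4373 to 9572 CPM without it, and so did the progenitor markers. The sum of the 7 enteroendocrine markers did not overlap, at 126 to 134 CPM with labelled knockdown and 80.6 to 110 CPM without it. Singly, AstC, CCHa1 and NPF were higher without overlap, and AstA, pros and Tk overlapped. Mip, below 1 CPM in every library, was lower without overlap. It had 0.0592 and 0.255 CPM with labelled knockdown and 0.422 and 0.391 CPM without it. The part of these markers in the result was not tested.

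With mutant mtDNA the LysX groups overlapped, and the log2 fold change with labelled knockdown was -0.41 (edgeR, SE 0.48, adjusted p 0.850) with 1 mean per group and 0.32 (edgeR, SE 0.21, adjusted p 0.794) with the class term, so its sign depended on that term. The test of the difference between the knockdown effects in the mtDNA backgrounds gave -0.83 on the log2 scale (edgeR, SE 0.26, adjusted p 0.264) with the class term and -0.90 (edgeR, SE 0.68, adjusted p 1) with 1 mean per group, so a difference was not shown. That test contains the comparison LysD was picked on. Between the mtDNA groups with labelled knockdown, both mutant libraries lay below both control libraries in LysX. That log2 fold change was -0.56 (edgeR, SE 0.48, adjusted p 1) with 1 mean per group and -0.55 (edgeR, SE 0.19, adjusted p 0.429, unadjusted p 0.0120) with the class term. The enterocyte markers summed to 4453 to 4574 CPM in these mutant libraries and 5060 to 5336 CPM in these control libraries, and the progenitor markers to 60.7 to 62.1 CPM in the mutant and 68.9 to 72.9 CPM in the control libraries, so both sums were lower in mutant mtDNA as well. Also lower without overlap were the enteroendocrine markers, at 118 to 124.1 CPM in the mutant and 126 to 134 CPM in the control libraries, the acid region markers, at 96.6 to 97.3 CPM in the mutant and 100.5 to 107.8 CPM in the control libraries, and the fat body markers, at 7.37 to 7.76 CPM in the mutant and 8.62 to 13.3 CPM in the control libraries. Single markers did not all follow their sums. The progenitor marker esg was higher without overlap, at 25.58 and 29.07 CPM in these mutant and 24.61 and 25.02 CPM in these control libraries. So was the enterocyte marker betaTry, at 282 and 285 CPM in mutant and 213 and 243 CPM in control libraries. So was the enteroendocrine marker AstC, at 42.6 and 44.1 CPM in mutant and 37.9 and 37.3 CPM in control libraries. Each acid region marker overlapped singly. The part of these sums and markers in the LysX level was not tested.

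LysP (FBgn0004429), the member known from the salivary gland, had its highest level in control replicate 1. It had 1.35 and 1.80 CPM in mutant mtDNA with labelled knockdown, 0.651 and 0.447 CPM in control mtDNA with labelled knockdown, 2.15 and 0.996 CPM in mutant mtDNA, and 6.05 and 0.685 CPM in control mtDNA. Control replicate 1, with 759 counts, was 8.83-fold above control replicate 2, with 14 counts. With labelled knockdown both mutant libraries lay above both control libraries, and the log2 fold change was 1.51 (edgeR, SE 0.998, adjusted p 1) with 1 mean per group and 1.503 (edgeR, SE 0.65, adjusted p 0.576, unadjusted p 0.0400) with the class term. Those 4 libraries held 7 to 33 LysP counts each.

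LysS (FBgn0004430), known from the larval gastric caeca, was near or at 0 in most libraries. It had 0.0819 and 0 CPM in mutant mtDNA with labelled knockdown, 0 and 0 CPM in control mtDNA with labelled knockdown, 1.26 and 0.285 CPM in mutant mtDNA, and 0.725 and 0.147 CPM in control mtDNA. The low-rRNA libraries held 83 and 91 counts, and the high-rRNA libraries without knockdown 8 and 3. In control mtDNA with labelled knockdown, the 0 counts allow up to 3 over the group, which is 0.0921 CPM, and 91 of the 94 counts of control mtDNA came from control replicate 1. In mutant mtDNA with labelled knockdown there were 2 counts, and 83 of the 91 counts of mutant mtDNA came from mutant replicate 1. LysS passed the filter through the groups without knockdown, and every knockdown library has a high rRNA share, so its lower level with labelled knockdown is given as a description.

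In CPM per kilobase of exon, which allows levels of different genes to be compared, LysD led in 3 groups, with 42.2 ± 3.91 in mutant mtDNA with labelled knockdown, 46.0 ± 3.41 in control mtDNA with labelled knockdown and 72.2 ± 18.8 in control mtDNA (SD, n = 2 each). LysX came next in these groups and LysE after it, and in all 3 the ranges of LysD and LysX, and of LysX and LysE, were separate. In mutant mtDNA, where LysD was picked for its low level, LysX led with 30.3 ± 19.2 and LysD followed with 8.54 ± 9.35 CPM per kilobase (SD, n = 2 each). Their ranges did not overlap, and below LysD every neighbour in the order overlapped the next. LysS or LysB closed the order in every group.

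**Figure D3:**
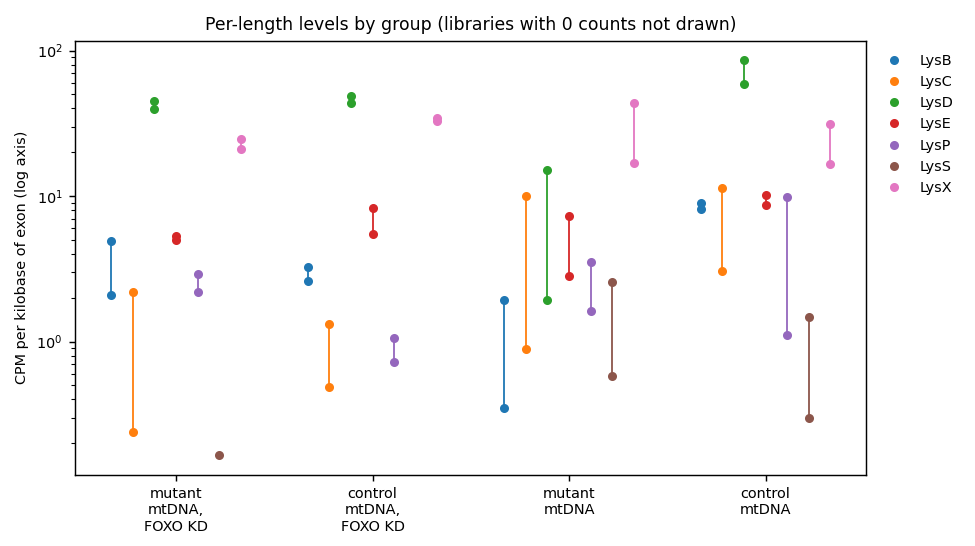
Level of each lysozyme gene per length in each library, in CPM per kilobase of exon on a log axis, by group; lines join the 2 libraries of a group, and libraries with 0 counts are not drawn. LysD lies above LysX in 3 groups and below it in mutant mtDNA without knockdown.

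Mutant against control mtDNA with labelled knockdown, the comparison that rests on libraries not used to pick LysD, called 0 of the 7 members with 1 mean per group and 0 of 7 with the class term, where 0% and 0.164% of all genes tested were called, 0.112% higher and 0.0519% lower with the class term. At an unadjusted p under 0.05 there were 0 members in the first fit, 2 in the fit with the class term, LysP and LysX, and 0 with DESeq2, which also called 0. Of the 11561 genes tested, 264 were under it in the first fit and 997 with the class term. The fitted change was lower in 3 members and higher in 4. LysE and LysX were lower and LysP higher without overlap of the groups, where 17.5% of all genes tested were lower and 23.3% higher without overlap.

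Without knockdown, the same comparison gave lower fitted levels for 5 of 7 members in mutant mtDNA in both fits, LysB, LysC, LysD, LysE and LysP. LysB, LysD and LysE were lower without overlap and 0 members were higher without overlap, where 9.81% of all genes tested were lower and 8.92% higher. With the class term 2.08% of all genes tested were called, among them 0.64% of all genes tested as lower. LysD was picked on this comparison and the copies share sequence with it, so nothing is read from that count. Enterocyte markers were at 5240 to 12474 CPM in mutant and 4373 to 9572 CPM in control mtDNA, and the 3 markers of the acid-secreting copper cell region at 109 to 141 CPM in mutant and 98.2 to 109 CPM in control mtDNA. Both sums were higher with mutant mtDNA in both library classes. For enterocyte markers this was 12474 against 9572 CPM in the low-rRNA pair and 5240 against 4373 CPM in the high-rRNA pair. The enterocyte marker nub went the other way, at 105 and 68.9 CPM in mutant and 111 and 92.6 CPM in control mtDNA. Progenitor markers, those of the labelled cell type, were lower with mutant mtDNA in both library classes, as LysD was, at 67.1 CPM in mutant replicate 1 against 99.9 CPM in control replicate 1 and at 44.8 CPM in mutant replicate 2 against 63.6 CPM in control replicate 2. Fat body markers, which include the yolk protein genes, were at 13.6 to 114 CPM in mutant and 11.1 to 64.8 CPM in control mtDNA, visceral muscle markers at 534 to 757 CPM in mutant and 219 to 757 CPM in control mtDNA, and haemocyte markers at 21.8 to 57.1 CPM in mutant and 26.8 to 67.1 CPM in control mtDNA. The fat body sum was higher with mutant mtDNA in both library classes. Enteroendocrine markers were at 62.8 to 93.8 CPM in mutant and 80.6 to 110 CPM in control mtDNA. This sum and the haemocyte sum were lower in mutant mtDNA in both library classes. The enteroendocrine marker NPF went the other way, at 11.1 and 9.43 CPM in mutant and 3.53 and 1.57 CPM in control mtDNA. The haemocyte sum was nearly all crq. Hml was at 1.03 and 1.53 CPM in mutant and 0.717 and 2.10 CPM in control mtDNA, and NimC1 had at most 3 counts in any library. No marker of these lists was at 0 in every library. The part of these cells in the lysozyme levels was not tested.

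**Figure D4:**
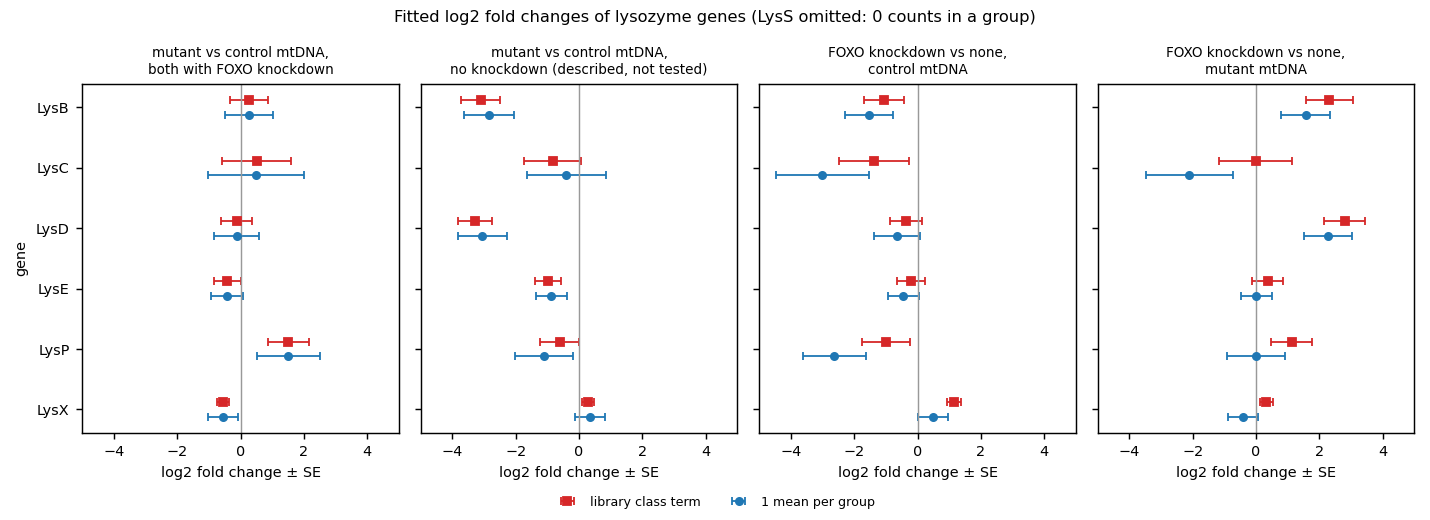
Fitted log2 fold change with its SE for the lysozyme genes other than LysS in 4 comparisons, from the fit with the library class term (squares) and with 1 mean per group (circles). LysD and LysB lie near 0 between the mtDNA groups with labelled knockdown and near -3 between those without it, which is the comparison LysD was picked on.

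Labelled knockdown against none was tested for the 6 members other than LysD. With control mtDNA, 5 of the 6 had lower fitted levels with knockdown in both fits, LysS among them, and LysX was the exception. The direction of LysS is not read, as it passed the filter through the libraries without knockdown. None of the 5 passed the threshold. The median over all genes tested was -0.11 on the log2 scale with 1 mean per group and -0.026 with the class term. LysB averaged 1.79 ± 0.270 CPM with labelled knockdown and 5.21 ± 0.381 CPM without it (SD, n = 2 each), with a log2 fold change of -1.54 (edgeR, SE 0.76, adjusted p 0.782) with 1 mean per group and -1.07 (edgeR, SE 0.62, adjusted p 0.618) with the class term. Without control replicate 2 the fit with the class term gave 0.798, so its sign rested on that library there. LysP had a log2 fold change of -2.63 (edgeR, SE 1.00, adjusted p 0.782) with 1 mean per group, which was -0.32 without control replicate 1. All 6 members other than LysX, LysD and LysS included, were lower without overlap, and LysX was higher without overlap, where 19.5% of all genes tested were lower and 14.3% higher. LysD was picked on its level in the control libraries, and LysS passed the filter through the libraries without knockdown, so nothing is read from that count. LysD averaged 22.1 ± 1.64 CPM with labelled knockdown and 34.7 ± 9.04 CPM without it (SD, n = 2 each). In the fit with 1 mean per group LysP had an unadjusted p under 0.05, where 622 of the 11561 genes tested did. With DESeq2, which called 0, LysC and LysP did. LysS was under it in both as well, but nothing is read from that because of how it passed the filter.

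With mutant mtDNA, 0 of the 6 members passed the threshold in either fit, where 0% of all genes tested were called with 1 mean per group and 1.9% with the class term, 0.761% higher and 1.14% lower. At an unadjusted p under 0.05 there were 0 members with 1 mean per group, where 643 of the 11561 genes tested were. With the class term there was 1, LysB, where 1164 of all genes tested were. DESeq2, which called 0, had 2, LysB and LysS. Nothing is read from LysS there, as it passed the filter through the libraries without knockdown. LysB averaged 2.13 ± 1.21 CPM with labelled knockdown and 0.698 ± 0.685 CPM without it (SD, n = 2 each), with both knockdown libraries above both others. LysB and LysD were higher and LysS, which passed the filter through the libraries without knockdown, lower without overlap, where 21.5% of all genes tested were higher and 22.3% lower. The LysB log2 fold change was 1.56 (edgeR, SE 0.76, adjusted p 0.778) with 1 mean per group and 2.31 (edgeR, SE 0.75, adjusted p 0.217) with the class term. Leaving out mutant replicate 1, the low-rRNA library, brought the fit with the class term to 3.31. That fit rests on mutant replicate 2, with 6 LysB counts, as the only library of its group. LysB may also share reads with LysD, which was picked on these mutant libraries. LysD averaged 20.3 ± 1.88 CPM with labelled knockdown and 4.10 ± 4.49 CPM without it (SD, n = 2 each), given without a test because the mutant libraries served to pick it. Marker sums differed between these groups as well: enteroendocrine markers were at 118 to 124.1 CPM with labelled knockdown and 62.8 to 93.8 CPM without it, visceral muscle markers at 314 to 336 CPM with and 534 to 757 CPM without it, and enterocyte markers at 4453 to 4574 CPM with and 5240 to 12474 CPM without it. Acid region markers, at 96.6 to 97.3 CPM with and 109 to 141 CPM without it, and fat body markers, at 7.37 to 7.76 CPM with and 13.6 to 114 CPM without it, were lower without overlap too. Some markers overlapped singly, among them the enterocyte markers nub, Myo31DF and betaTry and the acid region markers lab and Ptx1. Summed progenitor markers overlapped, at 60.7 to 62.1 CPM with labelled knockdown and 44.8 to 67.1 CPM without it. Of these, esg was higher without overlap, at 25.6 and 29.1 CPM with and 18.5 and 20.1 CPM without it. So was Sox100B, and the other progenitor markers overlapped. The part of these sums and markers in the lysozyme levels was not tested.

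Outside the family, the 5 genes whose log2 CPM followed LysD most closely over the 8 libraries, among 2969 genes at an average of at least 4 on the log2 CPM scale, were CG4734 (FBgn0033826) with a Pearson r of 0.973, CG3632 (FBgn0030735) with 0.917, CG10910 (FBgn0034289) with 0.902, Act42A (FBgn0000043), a cytoplasmic actin, with 0.885 and CG5399 (FBgn0038353) with 0.878. Their ranges were narrower than that of LysD. CG4734 had 60.8 and 56.6 CPM in mutant mtDNA with labelled knockdown, 55.9 and 60.8 CPM in control mtDNA with labelled knockdown, 52.3 and 36.7 CPM in mutant mtDNA, and 61.6 and 63.7 CPM in control mtDNA. Each of the 5 was at its lowest in mutant replicate 2, the library where LysD was lowest too. Over the 6 high-rRNA libraries r was 0.875 to 0.977. The points share libraries and depth, so these values describe the libraries only.

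The other lysozyme families were scarce. Of 6 further genes related to the same lysozyme type, 3 passed the filter on low counts, and 0 of their 12 tests over the 4 comparisons passed the threshold in either fit or with DESeq2, with 0 at an unadjusted p under 0.05 with 1 mean per group and 1 with the class term. In a single comparison, 233 to 643 of the 11561 genes tested were under it with 1 mean per group and 997 to 1262 with the class term. CG16799, the highest, had 4.67 and 3.19 CPM in mutant mtDNA with labelled knockdown, 2.54 and 3.70 CPM in control mtDNA with labelled knockdown, 3.55 and 5.48 CPM in mutant mtDNA, and 3.36 and 4.94 CPM in control mtDNA, so its groups overlapped. CG8492 lay between 0.175 and 1.28 CPM in every library. Of 5 genes of the invertebrate lysozyme type, 2 passed the filter, CG6426 and CG6429, and 0 of 8 tests passed the threshold in either fit or with DESeq2, with 2 at an unadjusted p under 0.05 in each edgeR fit. CG6426 had 431 counts in control replicate 1 and at most 63 in any other library.

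Antimicrobial peptide genes, the infection-induced defence genes of the fly, were barely detected. Of 14 such genes 4 passed the filter, 11 stayed below 1 CPM in every library and CecB had 0 counts in all 8. The 16 tests over 4 comparisons gave 0 calls in either fit and with DESeq2, with 1 at an unadjusted p under 0.05 with 1 mean per group and 2 with the class term. Of the 11561 genes tested, 233 to 643 per comparison were under it with 1 mean per group and 997 to 1262 with the class term. Without knockdown, all 4 had lower fitted levels in mutant than in control mtDNA in both fits. The medians were -1.11 on the log2 scale with 1 mean per group and -1.18 with the class term. Over all genes tested they were 0.0097 and 0.0067. The 14 genes summed to 5.36 and 1.28 CPM in mutant and 8.42 and 6.70 CPM in control mtDNA, and to 1.89 to 2.68 CPM with labelled knockdown. Each control sum rested largely on 1 gene, Drs with 5.79 CPM in control replicate 1 and DptA with 3.33 CPM in control replicate 2. DptA had at most 0.391 CPM in any other library, and only 0.207 CPM in control replicate 1. AttD lay between 0.356 and 1.91 CPM, and Drs between 0 and 5.79 CPM with its highest values in the low-rRNA libraries.

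Other digestive enzymes of the midgut, 17 amylases, maltases and serine proteases, did not have the low mutant level of LysD. All 17 had higher fitted levels in mutant than in control mtDNA without knockdown with 1 mean per group, and 16 of 17 with the class term, with a median of 0.37 on the log2 scale in that fit against 0.0067 over all genes tested. With the class term 5 passed the threshold, all higher, where 1.44% of all genes tested were called higher. With 1 mean per group 0 did, with 1 at an unadjusted p under 0.05, where 233 of the 11561 genes tested were, and DESeq2 called 0. Mal-A8, a maltase, changed by 0.88 (edgeR, SE 0.11, adjusted p 0.00172), Jon99Ci, a serine protease, by 0.85 (edgeR, SE 0.12, adjusted p 0.00294) and Mal-A7 by 0.78 (edgeR, SE 0.12, adjusted p 0.00678) in the fit with the class term. Mal-A8 had 472 and 437 CPM in mutant mtDNA with labelled knockdown, 362 and 359 CPM in control mtDNA with labelled knockdown, 338 and 305 CPM in mutant mtDNA, and 186 and 163 CPM in control mtDNA, so no 2 groups overlapped. Between the mtDNA groups with labelled knockdown 0 of 17 were called in either edgeR fit or with DESeq2, with 11 at an unadjusted p under 0.05 with the class term and 0 with 1 mean per group, and the median was 0.13 against 0.034 over all genes. Of the 11561 genes tested, 997 were at an unadjusted p under 0.05 with the class term and 264 with 1 mean per group. With labelled knockdown against none and control mtDNA, the fit with the class term called Mal-A8 and Mal-A7 higher, where 0.398% of all genes were. The Mal-A8 change there was 1.14 (edgeR, SE 0.12, adjusted p 0.000899). With mutant mtDNA that fit called Mal-A1 and Mal-A8 higher and Jon99Ci lower, where 0.761% of all genes were called higher and 1.14% lower. With 1 mean per group 0 of 17 were called in either mtDNA background. DESeq2 called 1 with control mtDNA and 0 with mutant mtDNA. With mutant mtDNA, 11 of 17 had lower fitted levels with labelled knockdown in the fit with the class term and 14 with 1 mean per group. With control mtDNA, 3 and 10 did.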

How the data were processed

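The authors deposited raw counts, as whole numbers with no normalization, for each gene and library. FastQC, cutadapt, HISAT2, featureCounts and limma are named in the submitters' processing notes, with no role or version. The genome build, annotation, strand and multiple-mapping settings are not given in the sources used here, so no coordinates or sequences are printed. Exon lengths, gene order and overlaps come from the Ensembl annotation of BDGP6, which matched 17331 of 17473 identifiers. Columns were matched to samples by the names in the titles.

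Counts were analysed with edgeR 4.0.16 in R 4.3.3: filterByExpr on the 4 groups (11561 genes kept), TMM, glmQLFit and glmQLFTest over all 8 libraries, two-sided, Benjamini-Hochberg over all genes tested. The library class term divides libraries at an rRNA share of 50% of counts over 136 rRNA genes. The common biological coefficient of variation was 0.472 with 1 mean per group and 0.250 with the class term. Alternatives used RLE scaling, no filter, DESeq2 1.42.0, a replicate block, rRNA genes left out, subsets of libraries and each library left out. Likeness to LysD used log2 CPM with a prior count of 3. A gene with 0 counts may have up to 3, which is 0.0239 to 0.191 CPM per library. In each group the replicates were further apart than sampling alone gives (median chi-square per gene 1.50 to 17.0, against 0.455 from sampling). The members, gene lists, tests and the library class were chosen with earlier results of these data known. Genes named are the members, the 5 most like LysD, foxo, and from each other list those past the threshold (up to 3 per comparison by smallest p) or its highest 2. CecB, DptA, Jon65Aiv, CG6426 as a library-specific value, and single cell type markers were named after their values were seen. Python 3.11.15, pandas 2.3.3, scipy 1.17.1 and matplotlib 3.10.9 served for tables and plots.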

Additional observations from a re-analysis of the deposited data

Results flagged for a closer look

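LysB and LysD were each on opposite sides of the groups without knockdown in the 2 mtDNA backgrounds. For LysB, both libraries of control mtDNA with labelled knockdown lay below both control libraries, a log2 fold change of -1.54, while both libraries of mutant mtDNA with labelled knockdown lay above both mutant libraries, 1.56. The test of this difference gave 3.11 on the log2 scale (edgeR, SE 1.07, adjusted p 1) with 1 mean per group and 3.38 (edgeR, SE 0.86, adjusted p 0.139) with the class term, so it was not past the threshold. Of all genes tested, 0% and 0.51% passed that test. For LysD the fold changes were -0.65 with control mtDNA and 2.28 with mutant mtDNA, again with every library on its side. With the class term they were -0.36 and 2.80. The control value was 2.58 in that fit without control replicate 2, so its sign turned, and the mutant value ranged from 0.949 to 4.44 over both fits when single libraries were left out. The LysB value with control mtDNA likewise turned to 0.798 with the class term without control replicate 2. The LysD difference was not tested, because LysD was picked on the libraries without knockdown, and the LysB difference contains the same comparison.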

How the results depend on the processing

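With 2 libraries per group and a library class that divides the groups without knockdown, single values of low members were loosely fixed, and LysP and LysS rested on few counts outside the low-rRNA libraries. The number of members called was 0 in each tested comparison with 1 mean per group and under every alternative without the class term. For labelled knockdown with control mtDNA it was 1, LysX, with the class term and 1 with rRNA genes also left out, and it ranged from 0 to 1 when single libraries were left out. For labelled knockdown with mutant mtDNA it ranged from 0 to 1 when single libraries were left out. The members lower in mutant mtDNA without knockdown numbered 5, and 3 to 7 when single libraries were left out. Calls among digestive enzymes over the 4 comparisons were 0 with 1 mean per group, 10 with the class term, 14 with rRNA genes also left out and 1 with DESeq2. Where a member was tested, its sign turned in 33 fits under an alternative, all for fold changes that did not pass the threshold. These included the large values of LysB for knockdown with control mtDNA, -1.54, and LysC for knockdown with mutant mtDNA, -2.12. Untested fold changes turned too. Between the mtDNA groups without knockdown, single libraries left out with 1 mean per group gave -3.04 to 0.893 for LysC and -1.95 to 1.23 for LysP. They gave -0.663 to 2.40 for LysS and -0.531 to 0.914 for LysX. With the class term LysP ranged from -1.53 to 0.552, and LysD for knockdown with control mtDNA from -0.898 to 2.58. The cause was not tested. For labelled knockdown with mutant mtDNA, LysP was at -0.017, against 1.12 with the class term, 1.13 with rRNA genes also left out, 0.014 with RLE scaling, 0.019 with DESeq2 and 0.23 with the replicate block; LysX was at -0.41, against 0.32 with the class term and 0.33 with rRNA genes also left out; LysE was at 0.0071, against -0.079 with no filter. LysC between the mtDNA groups with labelled knockdown was at 0.49, against -0.29 with the replicate block. Leaving out single libraries with 1 mean per group gave -0.48 to 0.754 for LysB and -1.85 to 1.38 for LysC between the mtDNA groups with labelled knockdown, and -4.49 to 0.501 for LysC, -0.544 to 0.86 for LysE, -0.49 to 0.645 for LysP and -0.97 to 0.44 for LysX for knockdown with mutant mtDNA. Leaving them out with the class term gave -0.48 to 0.755 for LysB and -1.85 to 1.43 for LysC between the mtDNA groups with labelled knockdown. For knockdown with control mtDNA it gave -1.47 to 0.80 for LysB and -0.56 to 1.00 for LysE, which was 0.053 without control knockdown replicate 2. For knockdown with mutant mtDNA it gave 0.77 for LysC without mutant knockdown replicate 2 and 0.512 without mutant replicate 1, and -0.72 to 0.86 for LysE. It gave LysP values of 1.30 and 0.898 without mutant knockdown replicates 1 and 2, and 0.643 and 2.69 without mutant replicates 1 and 2. It gave LysX values of 0.203 and 0.426 without mutant knockdown replicates 1 and 2, 0.44 without mutant replicate 1 and -0.00045 without mutant replicate 2.

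Replicate numbers showed no pairing that involved a knockdown group, and between mutant and control mtDNA pairing cannot be told apart from the library class. The difference between replicates 1 and 2 correlated across genes at 0.689 between mutant and control mtDNA, which the library class divides the same way, and at -0.0367 to 0.00208 for the other pairs of groups. The replicate block left the number of members called at 0 in each comparison. With the class term, LysX remained called in 3 of the 4 fits that each left out 1 library.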
